A study of Mus musculus with 9 samples.

Results

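The cerebellin, neurexin and delta receptor genes are 7 genes, Cbln1, Cbln2, Cbln3, Cbln4, Grid1, Nrxn2 and Nrxn3, picked by symbol from 23360 genes listed for each of 9 mouse libraries. Expression was measured by sequencing of ribosome-depleted total RNA on an Ion Proton. A1G tumours (3 libraries) came from animals of mixed strain with the genotype Math1-cre; A1G; Ptch1+/-, and Ptch1 tumours (3 libraries) from Ptch1+/- animals, also of mixed strain. Both kinds therefore carry the Ptch1 mutation, and the study describes the A1G kind as medulloblastoma driven by ATOH1 together with aberrant Hedgehog signalling. The cerebellum libraries (3) were from wild-type adult C57BL/6 mice, so strain and tissue cannot be told apart in any comparison with cerebellum. Math1-cre acts in cells that express Atoh1, which in the cerebellum are the granule cell progenitors. The sources used here give no age for the tumour animals, and no label says whether the replicates of a group came from separate animals, so p-values measure the spread between these libraries.

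Cerebellins are secreted proteins of the C1q family. In the mouse cerebellum, Cbln1 is released by granule cells at the synapses of their parallel fibres, where it joins neurexins on the presynaptic membrane to delta receptors on Purkinje cell dendrites. Cbln3 assembles with Cbln1 and depends on it to leave the cell. Cbln2 and Cbln4 also bind neurexins, and Grid1 encodes the delta receptor GluD1.

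Fragments per gene totalled 2350941 to 9290237 per library, and levels are given in CPM, the fragments of a gene scaled to library depth with TMM factors over all 9 libraries. A floor of 3 fragments corresponds to 0.337 to 1.23 CPM. The tissue labels were checked on marker genes. All 10 progenitor and proliferation markers were higher in the tumours, with summed levels of 4274 to 9614 CPM in the tumours against 98.7 to 147 CPM in cerebellum (Mki67, 2997 ± 1262 CPM, SD, n = 6, against 5.54 ± 1.75 CPM, SD, n = 3). All 10 genes listed as mature granule cell markers were lower. Their sums were 350.1 to 844 CPM in A1G tumours, 120.3 to 533 CPM in Ptch1 tumours and 6221 to 6828 CPM in cerebellum. Snap25, the most abundant of them, held 2652 ± 789 CPM in cerebellum (SD, n = 3). Whether each listed gene is specific to granule cells was not tested. All 8 Purkinje cell markers and all 8 interneuron markers were lower too, with Slc6a5 without a fragment in every tumour library and Pcp2 in every Ptch1 tumour library. Because the samples are bulk tissue, fewer cells of a type and less RNA per cell cannot be told apart.

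Cbln3 and Cbln4 changed in opposite directions between tumours and cerebellum, and their promoter windows are shown for that reason. They run from 250 bases before to 50 bases after the RefSeq start site (GRCm38.p6), on the minus strand. Each window was searched on both strands for 3 motifs. CAGCTG is an E-box, a kind of site bound by Atoh1 and other basic helix-loop-helix factors. TTGGC is the half-site of nuclear factor I proteins. It appears in the printed letters as GCCAA where it lies on the opposite strand. Part of the site bound by Gli proteins, the transcription factors of the Hedgehog pathway, is CCACCC. Capitals mark matches. The Cbln3 window is chr14:55884207-55884506 and the Cbln4 window is chr2:172043417-172043716.
Cbln3: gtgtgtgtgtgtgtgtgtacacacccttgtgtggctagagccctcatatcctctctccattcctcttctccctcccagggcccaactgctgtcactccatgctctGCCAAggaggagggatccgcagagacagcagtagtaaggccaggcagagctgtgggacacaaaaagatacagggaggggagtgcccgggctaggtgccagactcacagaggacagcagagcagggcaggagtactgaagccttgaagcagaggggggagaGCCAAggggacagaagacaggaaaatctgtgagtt
Cbln4: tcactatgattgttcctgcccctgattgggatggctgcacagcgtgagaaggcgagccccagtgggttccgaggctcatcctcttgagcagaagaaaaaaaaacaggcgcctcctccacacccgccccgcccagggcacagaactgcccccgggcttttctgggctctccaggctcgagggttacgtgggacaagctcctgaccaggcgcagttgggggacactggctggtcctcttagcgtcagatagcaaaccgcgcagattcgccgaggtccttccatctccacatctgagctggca
The Cbln3 window held 2 TTGGC matches, at positions -145 and 16 from the start site, and neither of the other motifs. The Cbln4 window held none of the 3 motifs. TTGGC occurs in 46.7% of 32851 promoter windows of that length, CCACCC in 31.5% and CAGCTG in 16.3%. G and C made up 57% of the Cbln3 window and 60.3% of the Cbln4 window. Of the 7 members, 3 matched the table of RefSeq promoters. Nrxn3, the remaining one of these, has 3 windows, of which 1 held a pair of TTGGC matches, 1 held a CCACCC match and 1 held no match.

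Of the 7 members, 6 passed the filter on low values and were tested, and Cbln2 was not. Between tumours and cerebellum 5 of the 6 passed the threshold of adjusted p under 0.05, 1 higher and 4 lower in the tumours, where 42.2% of the 14337 tested genes passed (20.7% higher and 21.5% lower). The genes that fell were Cbln3, Nrxn3, Cbln1 and Nrxn2, and Cbln4 rose. The median log2 fold change of the 6 tested members was -2.13, beside 0.01 over all tested genes. Between A1G and Ptch1 tumours no member passed, where 0.0139% of genes did.

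**Figure D1:**
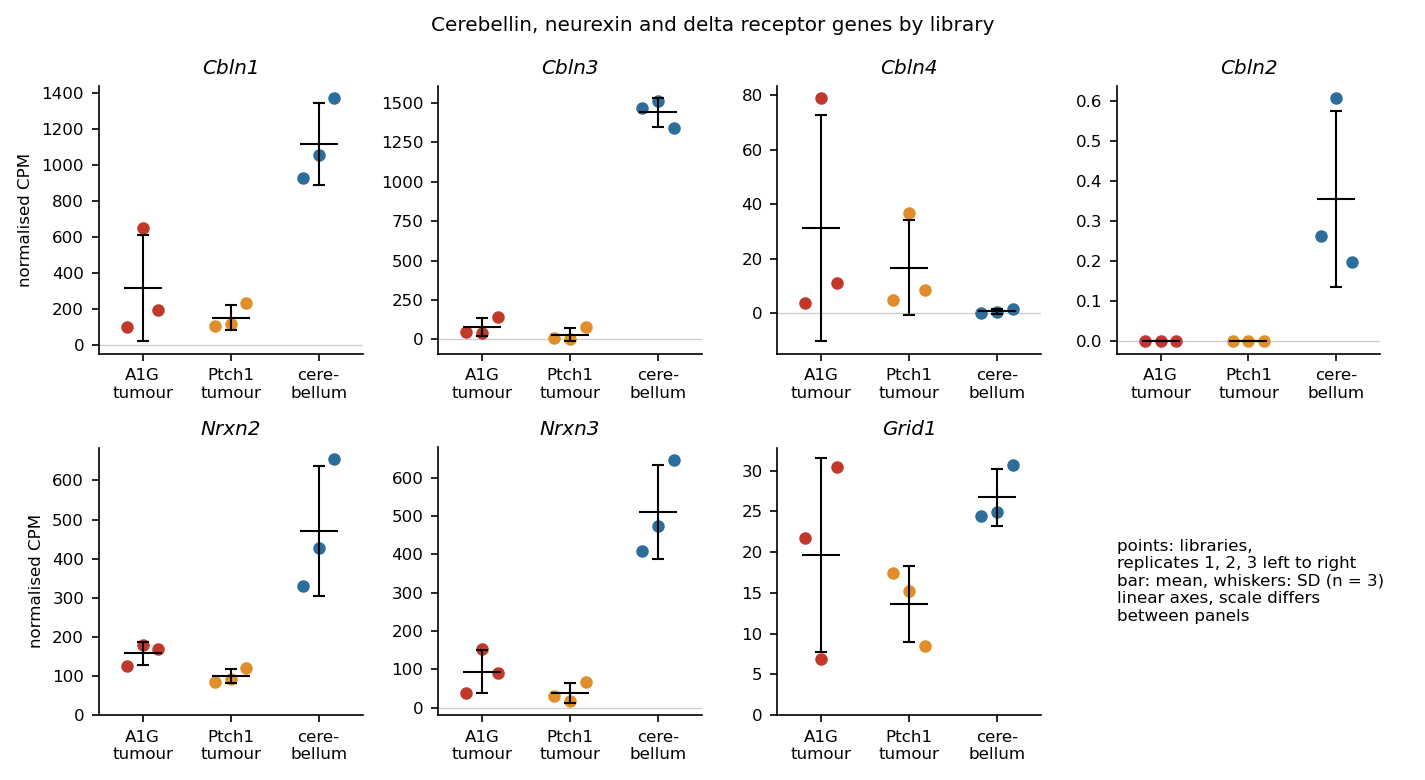
Level of each of the 7 members in each library (TMM-scaled CPM, linear axes whose scale differs between panels), 1 panel per gene with A1G tumours left, then Ptch1 tumours, then cerebellum; points are libraries, horizontal bars group means and whiskers SD (n = 3). Cbln1, Cbln3, Nrxn2 and Nrxn3 lie lower in all 6 tumour libraries than in any cerebellum library, Cbln4 lies higher, and the Grid1 libraries overlap.

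Among the secreted ligands, Cbln1 (chr8:87468405-87472609, minus strand, GENCODE M21 on mm10) was measured at 98.4, 652 and 195 CPM in A1G tumours. In Ptch1 tumours it stood at 107, 117 and 233 CPM, and in cerebellum at 931, 1056 and 1374 CPM. All 6 tumour libraries lay below all 3 cerebellum libraries, with A1G replicate 2 nearest to them. Cbln1 fell 5.12-fold in the tumours (log2 fold change -2.36, SE 0.46, adjusted p = 0.00133, from a quasi-likelihood fit in edgeR adjusted after Benjamini and Hochberg, as are all adjusted p-values of single genes below). By tumour kind, the log2 fold change against cerebellum was -1.83 (SE 0.57, adjusted p = 0.0273) for A1G tumours and -2.88 (SE 0.59, adjusted p = 0.00216) for Ptch1 tumours. The lncRNA gene Gm2694 overlaps the Cbln1 gene span on the other strand, shares none of its exon bases, and had 30.4 to 54.9 CPM in tumours and 86.1 to 116 CPM in cerebellum. The A1G call of Cbln1 was lost without A1G replicate 1 (log2 fold change -1.40, adjusted p = 0.0666), A1G replicate 3 (-1.58, 0.097), cerebellum replicate 2 (-1.85, 0.0601) or cerebellum replicate 3 (-1.63, 0.0792). Without A1G replicate 2 the fall was larger (-2.93, adjusted p = 0.000544).

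Cbln3 (chr14:55878913-55884392, minus strand), the partner of Cbln1 in granule cells, had the largest fall of the tested members. Its levels were 47.2, 40.9 and 142 CPM in A1G tumours. Ptch1 tumours had 9.16, 1.69 and 76.2 CPM. Cerebellum held 1467, 1510 and 1337 CPM, a narrow range beside the tumours, where the lowest library, Ptch1 replicate 2, had 1.69 CPM. The highest tumour library, A1G replicate 3, lay below every cerebellum library. The fall was 31.1-fold (log2 fold change -4.96, SE 0.78, adjusted p = 0.000288). The A1G tumours stood at -4.23 (SE 1.004, adjusted p = 0.0068) and the Ptch1 tumours at -5.68 (SE 1.08, adjusted p = 0.0013) against cerebellum on that scale. The call held without each library in turn, but the size did not: without Ptch1 replicate 3 the log2 fold change was -6.18 in all tumours and -8.13 in Ptch1 tumours. It was -5.09 in Ptch1 tumours without Ptch1 replicate 2 and -5.03 in A1G tumours without A1G replicate 3.

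Cbln4 (chr2:172036233-172043466, minus strand) was the only member that rose. A1G tumours had 10, 253 and 27 fragments, or 3.69, 78.9 and 11.1 CPM. Ptch1 tumours had 22, 327 and 22 fragments, or 5.04, 36.7 and 8.43 CPM. Cerebellum libraries held 0, 2 and 9 fragments, or 0, 0.608 and 1.80 CPM. Replicate 2 of each tumour kind carried most of the signal, and the lowest tumour library still exceeded the highest cerebellum library. The fitted log2 fold change was 4.69 (SE 1.21, adjusted p = 0.00773), 5.13 (SE 1.28, adjusted p = 0.00876) for A1G tumours alone and 4.26 (SE 1.26, adjusted p = 0.0172) for Ptch1 tumours alone. The size of this change is poorly fixed, since cerebellum replicates 1 and 2 lie under the floor of 3 fragments. Over all tumours the log2 fold change was 3.65 without A1G replicate 2, 4.01 without Ptch1 replicate 2, 6.21 without cerebellum replicate 3 and 2.35 with limma on log2(FPKM + 1), a scale that understates changes of low genes, with adjusted p of 0.00901, 0.0134, 0.017 and 0.0271. The A1G call was lost without A1G replicate 2 (3.04, adjusted p = 0.05, not under the threshold). The A1G value was 6.67 without cerebellum replicate 3, where the Ptch1 value was 5.76. The Ptch1 call was lost without Ptch1 replicate 2 (2.89, adjusted p = 0.0951), cerebellum replicate 1 (3.72, 0.0557) or cerebellum replicate 2 (4.08, 0.0608).

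Cbln2 (chr18:86711110-86718283, plus strand) was not detected in any tumour library. Cerebellum held 1, 2 and 1 fragments. All 9 values lie under the floor of 3 fragments per library, so no fold is given and no test was made after the filter.

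**Figure D2:**
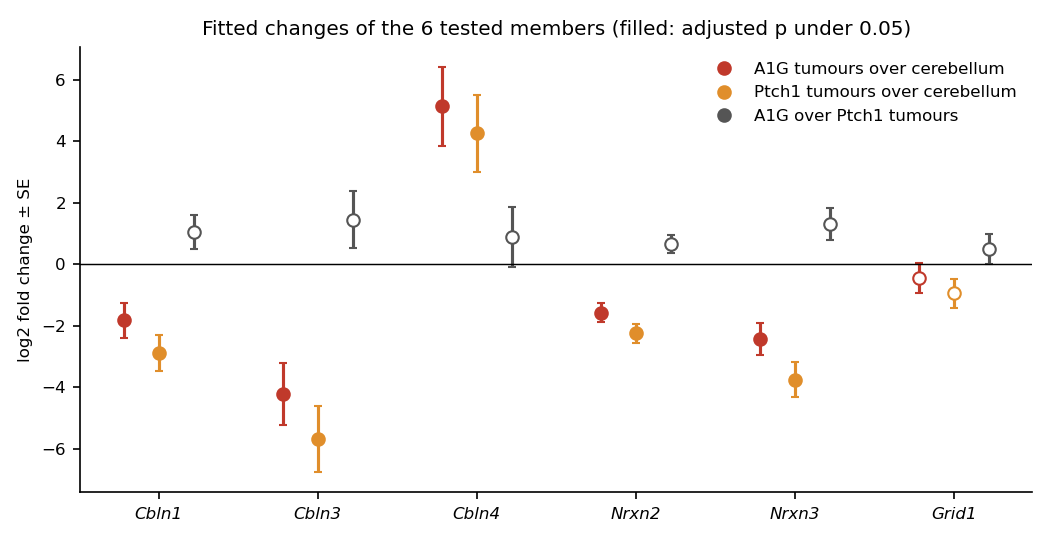
Log2 fold change with SE of each tested member, in A1G tumours against cerebellum, Ptch1 tumours against cerebellum, and A1G against Ptch1 tumours; filled points have an adjusted p under 0.05. Cbln4 is positive in every comparison with cerebellum, at 5.13 and 4.26, and Cbln3 the most negative, at -4.23 and -5.68, and the estimates between tumour kinds are all positive but none passes the threshold.

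The receptors on the presynaptic side are the neurexins, cell-surface proteins with many isoforms. Nrxn2 (chr19:6418731-6544169, plus strand) measured 125, 179 and 169 CPM in A1G tumours. Ptch1 tumours had 85.6, 92.8 and 121 CPM, against 331, 428 and 656 CPM in cerebellum. The 3 groups did not overlap. Nrxn2 fell 3.76-fold in the tumours (log2 fold change -1.91, SE 0.25, adjusted p = 6.84e-05). A1G tumours alone stood at -1.58 (SE 0.30, adjusted p = 0.00192) and Ptch1 tumours at -2.24 (SE 0.31, adjusted p = 0.000151). Nrxn2 shares 682 exon bases, 4.94% of its exons, with Slc22a12 on the other strand, and no source used here says whether counting took account of strand. Slc22a12 had at most 3.83 CPM in any library.

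Nrxn3 (chr12:88722876-90334935, plus strand) had 39.1, 152 and 91.7 CPM in A1G tumours. Ptch1 tumours had 30.7, 17.3 and 67.0 CPM. Cerebellum held 409, 475 and 647 CPM. Every tumour library lay below every cerebellum library, and A1G replicate 2 was the highest tumour library. Nrxn3 fell 8.54-fold (log2 fold change -3.09, SE 0.42, adjusted p = 0.000102), with -2.43 (SE 0.53, adjusted p = 0.00401) in A1G tumours and -3.75 (SE 0.56, adjusted p = 0.000252) in Ptch1 tumours, or -4.42 without Ptch1 replicate 3.

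On the postsynaptic side, Grid1 (chr14:34820108-35583379, plus strand) had 21.7, 6.86 and 30.4 CPM in A1G tumours. Ptch1 tumours had 17.4, 15.2 and 8.43 CPM, against 24.4, 24.9 and 30.7 CPM in cerebellum. The A1G and cerebellum libraries overlapped, while the Ptch1 libraries lay below cerebellum. Of all tested genes, 54.3% did not overlap between Ptch1 tumours and cerebellum, and 45.9% between A1G tumours and cerebellum. The log2 fold change in the tumours was -0.70 (SE 0.40, adjusted p = 0.18) and did not pass the threshold. The values were -0.45 (SE 0.48, adjusted p = 0.505) for A1G tumours and -0.95 (SE 0.48, adjusted p = 0.131) for Ptch1 tumours. The Ptch1 value passed without A1G replicate 2 (-0.95, adjusted p = 0.0407). Among the 6 tested members, 5 did not overlap between tumours and cerebellum, as did 38.2% of all tested genes. Against cerebellum, 5 members passed in A1G tumours, 1 higher and 4 lower, where 32.4% of genes did (16.3% higher and 16.1% lower), and 5 in Ptch1 tumours, again 1 higher and 4 lower, where 40% did (20.2% higher and 19.7% lower).

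Levels were compared between genes on a scale of CPM per kilobase. Summed cerebellin levels were 163 ± 138 CPM per kilobase in A1G tumours, 77.8 ± 36.7 in Ptch1 tumours and 780 ± 83.7 in cerebellum (SD, n = 3 each). On this scale Cbln1 made up most of the cerebellin sum in every library, 71.9 to 88.6% in A1G tumours, 79.1 to 92.7% in Ptch1 tumours and 57.4 to 68.5% in cerebellum. The scale divides by the transcript length that the deposited FPKM implies, 2.31 kilobases for Cbln1 and 4.89 kilobases for Cbln3. In CPM the order in cerebellum differed, with a mean of 1438 ± 90.3 for Cbln3 and 1120 ± 228 for Cbln1 (SD, n = 3). Cbln1 was the higher of the pair in CPM only in cerebellum replicate 3. Cbln3 contributed 2.62 to 24.7% in A1G tumours, 0.537 to 13.1% in Ptch1 tumours and 31.4 to 42.6% in cerebellum. Cbln4 reached 20.4% in Ptch1 replicate 2 and was at most 0.0736% in cerebellum.

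**Figure D3:**
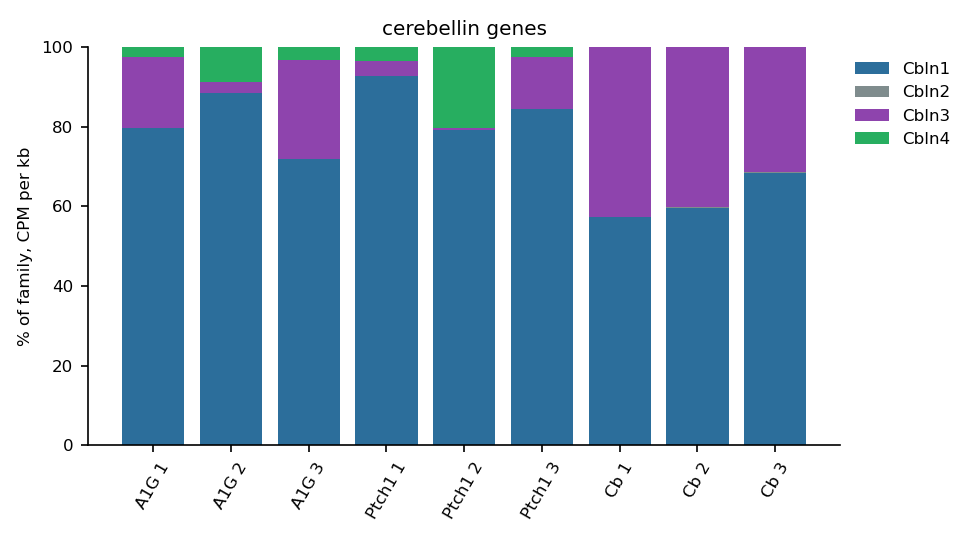
Share (%) of each gene in the summed cerebellin CPM per kilobase, as stacked bars by library, for the cerebellins, with A1G tumours left, then Ptch1 tumours, then cerebellum (Cb). Cbln3 holds 31.4 to 42.6% of the cerebellin sum in cerebellum and at most 24.7% in a tumour library.

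Whether members of a family changed unequally was tested on the log2 ratio of their CPM, not of CPM per kilobase, with a pseudocount of 0.5 CPM. The Cbln3 to Cbln1 log2 ratio averaged -2.72 ± 2.02 in tumours (SD, n = 6) and 0.38 ± 0.37 in cerebellum (SD, n = 3), a difference of -3.10 (exact two-sided permutation test, p = 0.0238, which is the lowest value possible with 6 and 3 libraries; 0.0476 after adjustment over 4 ratio tests). The Nrxn3 to Nrxn2 log2 ratio averaged -1.25 ± 0.76 in tumours and 0.14 ± 0.16 in cerebellum, a difference of -1.39 (exact p = 0.0238, adjusted p = 0.0476). All 6 tumour libraries lay below all 3 cerebellum libraries for both ratios. Between tumour kinds the libraries overlapped: the Cbln3 to Cbln1 ratio averaged -1.83 in A1G and -3.61 in Ptch1 tumours (exact p = 0.3, where 0.1 is the smallest possible), and the Nrxn3 to Nrxn2 ratio -0.93 and -1.57 (exact p = 0.5).

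**Figure D4:**
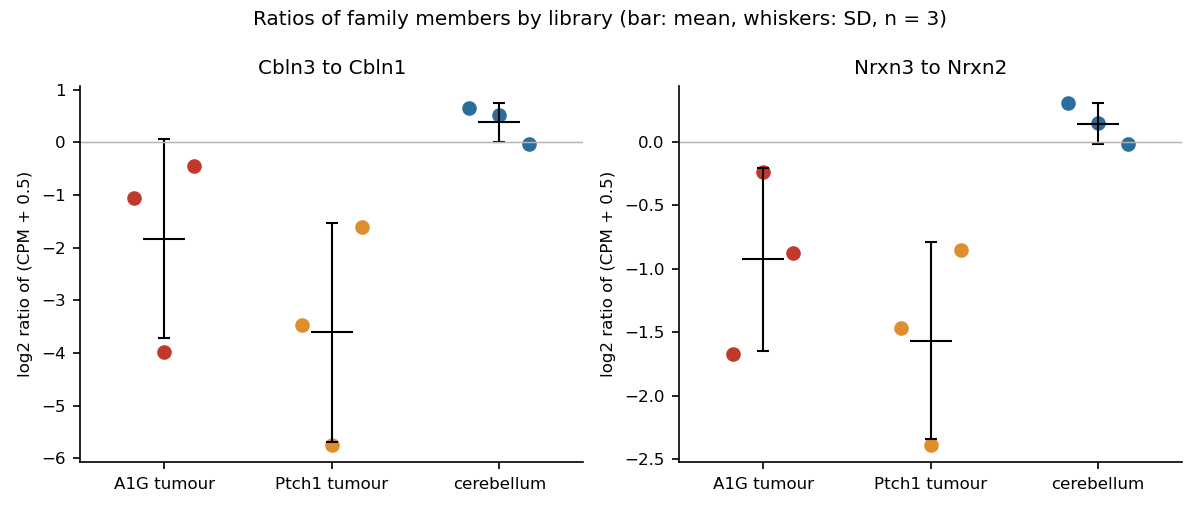
Log2 ratio of Cbln3 to Cbln1 and of Nrxn3 to Nrxn2 in each library (points, from CPM + 0.5), with group means as bars, SD (n = 3) as whiskers, and A1G tumours left, then Ptch1 tumours, then cerebellum. The tumour libraries lie from -5.75 to -0.46 for Cbln3 to Cbln1, and the cerebellum libraries from -0.04 to 0.66.

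Between A1G and Ptch1 tumours the question was whether the added A1G and Math1-cre alleles went with other levels of these genes. All 6 estimates were above 0, with a median log2 fold change of 0.96 beside 0.02 over all tested genes, and none passed. Some other lists also lay above 0 in this comparison, with 8 of 8 Purkinje genes (median 2.14) and 7 of 8 interneuron genes (1.80). So did 6 of 6 oligodendrocyte genes (1.39), 9 of 10 mature granule cell genes (1.17) and 5 of 5 microglia genes (0.63). Some lists lay below 0, among them the progenitor and proliferation markers, with 2 of 10 above 0 (median -0.29). Of the choroid plexus genes, 0 of 2 lay above 0 (-0.99). The part of these lists in the members' values was not tested. Nrxn3 had 1.32 (SE 0.52, unadjusted p = 0.0254, adjusted p = 0.402) and Nrxn2 0.66 (SE 0.30, unadjusted p = 0.0474, adjusted p = 0.464), the only members under 0.05 before adjustment, as were 10.6% of all genes. Nrxn2 was the 1 member whose tumour kinds did not overlap, as did 15.5% of genes. Cbln3 stood at 1.45 (SE 0.92, adjusted p = 0.601), Cbln1 at 1.05 (SE 0.56, adjusted p = 0.528), Cbln4 at 0.87 (SE 0.98, adjusted p = 0.782) and Grid1 at 0.50 (SE 0.48, adjusted p = 0.737). These estimates moved with single libraries. Without A1G replicate 2 the Cbln1 estimate was -0.048 and the Cbln4 estimate -1.22. That library's progenitor and proliferation markers summed to 4274 CPM, against 6896 to 9614 CPM in the other tumour libraries. Mki67 alone ranged from 620 to 3475 CPM in A1G tumours. The part of these markers in the estimates was not tested. Without Ptch1 replicate 3 the Cbln3 estimate was 3.90 (adjusted p = 0.148) and the Nrxn3 estimate 1.98 (0.253), without Ptch1 replicate 2 the Cbln3 estimate was 0.86 (0.775) and the Cbln4 estimate 2.24 (0.602), and without A1G replicate 3 the Cbln3 estimate was 0.65 (0.882).

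The wider set of partners held genes called in each direction, and their counts are to be set beside the 42.2% of all tested genes that were called, 20.7% higher and 21.5% lower. Of the C1q-like ligands and their Bai receptors, 5 of 7 were tested, 1 higher and 2 lower in tumours. C1ql1, the ligand of Bai3 at climbing fibre synapses, rose (109 ± 57.4 CPM in tumours, SD, n = 6, against 5.99 ± 3.29 CPM in cerebellum, SD, n = 3; log2 fold change 4.12, SE 0.48, adjusted p = 3.07e-05), while Bai1 (-1.94) and Bai2 (-1.20) fell. Bai3 itself was not called (log2 fold change -0.75, SE 0.34, adjusted p = 0.0953). Its levels were 149 ± 55.8 CPM in tumours and 250 ± 21.2 CPM in cerebellum. Of 13 tested neurexin ligands of other families, 1 was higher, 4 lower and 8 not called. Clstn3, the postsynaptic calsyntenin-3, fell (30.9 ± 8.59 CPM in tumours against 431 ± 39.8 CPM in cerebellum; log2 fold change -3.81, adjusted p = 5.94e-07), as did Lrrtm3 (-2.49). Nxph3, a secreted neurexophilin, rose (146 ± 43.6 CPM in tumours against 22.3 ± 3.43 CPM in cerebellum; log2 fold change 2.70, adjusted p = 2.75e-05).

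Of 10 intracellular partners, 1 was higher, 5 were lower and 4 were not called, with Shank1, a postsynaptic scaffold, at -5.43, Lin7a at -3.55 and Apba1, which binds the neurexin tail with Cask and Lin7 proteins, at -2.28. The Khdrbs proteins control splicing of a neurexin exon that affects cerebellin binding. Khdrbs1 (1.32, adjusted p = 0.000553) and Khdrbs3 (2.16, adjusted p = 0.000156) rose and Khdrbs2 (-4.16, adjusted p = 0.000285) fell, with 0.553 ± 0.587 CPM in tumours and 10.4 ± 0.736 CPM in cerebellum. Isoforms were not measured here. No gene of these 4 lists passed between A1G and Ptch1 tumours.

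**Figure D5:**
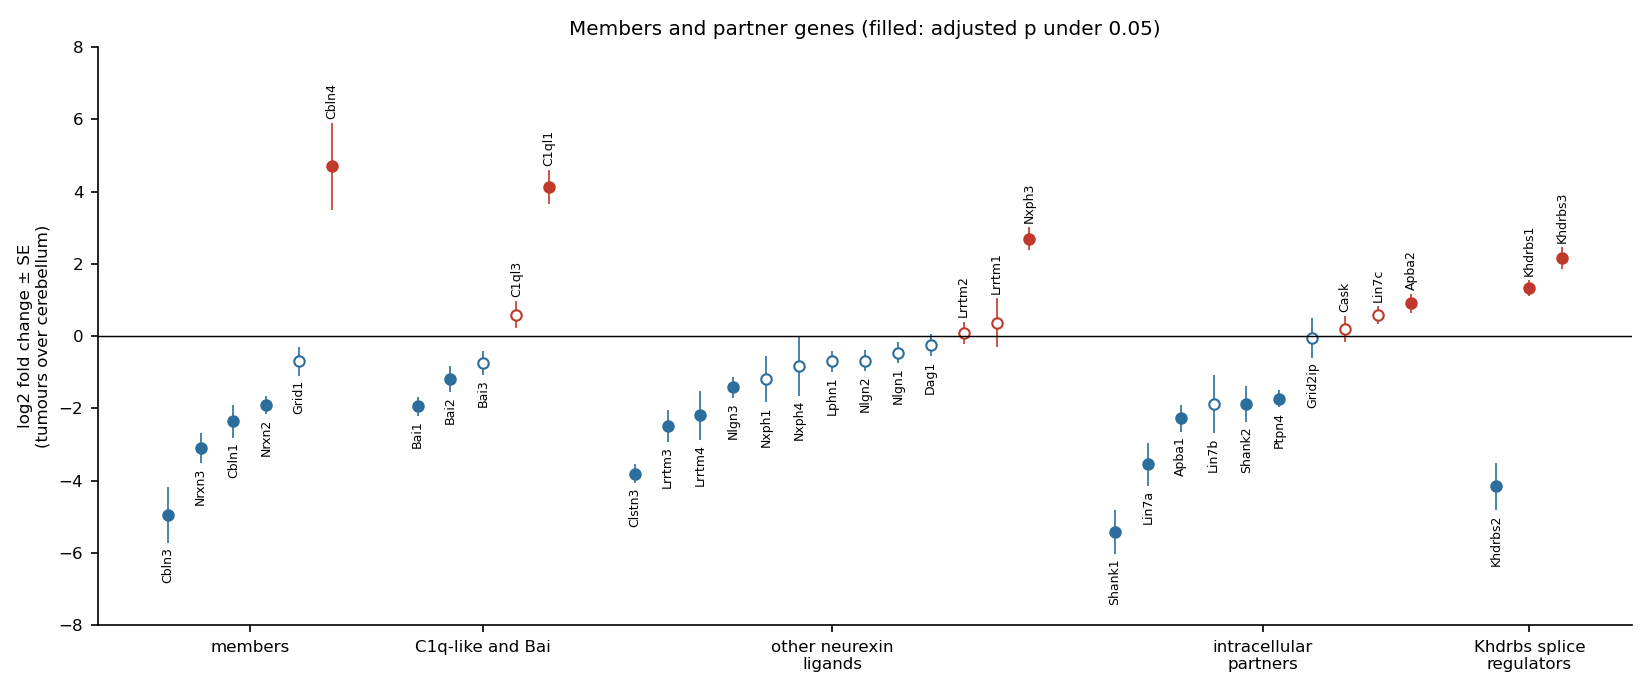
Log2 fold change with SE between tumours and cerebellum for the members and each list of partner genes; filled points have an adjusted p under 0.05, red points lie above 0 and blue points below. C1ql1, Nxph3 and Cbln4 stand highest, at 4.12, 2.70 and 4.69, and Shank1 lowest, at -5.43.

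Genes whose profile over the 9 libraries was most like a member's were ranked by the root mean square difference of log2(CPM + 1) after centring, as a description of the shared profile only. Cbln3 was nearest to Chn2 (0.489), Gabra6 (0.508) and Vsnl1 (0.521), where the median over all genes was 3.13. All 3 are mature granule cell markers of the list above. Cbln1 was nearest to Ccl27a (0.257), Iqsec1 (0.259) and Pacsin1 (0.272), Nrxn3 to Kcnh1 (0.176), Mpp2 (0.216) and Gprc5c (0.221), and Nrxn2 to Osbpl6 (0.104), Cdk16 (0.161) and Slc43a2 (0.188). Cbln4 was less closely matched, with Pkdcc at 0.814 and Sox4 at 0.825 among its nearest, and Grid1 was nearest to Klhl21 (0.235), Dusp15 (0.252) and Nr1d2 (0.253).

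The other marker lists moved as follows between tumours and cerebellum, and their part in the changes of the members was not tested. Lower were 6 of 6 oligodendrocyte genes and 5 of 6 astrocyte and Bergmann glia genes. Purkinje sums were 341 to 747 CPM in A1G tumours, 184 to 272 CPM in Ptch1 tumours and 9121 to 11578 CPM in cerebellum, and interneuron sums 36.5 to 88.8, 15.3 to 25.7 and 1151 to 1292 CPM in these groups. Calb1, a Purkinje gene, was the only marker that passed between A1G and Ptch1 tumours (log2 fold change 3.81, adjusted p = 0.00627). Of 3 tested unipolar brush cell genes 1 rose, Slc17a6, and 2 fell, among them Eomes. C1qa was the 1 microglia gene of 5 that rose, Pax6 the 1 granule lineage gene of 4, and Flt1 the 1 endothelial gene of 4 that fell. Of 2 tested choroid plexus genes Ttr fell, with list sums of 5.35 to 30.5 CPM in tumours and 53.8 to 2726 CPM in cerebellum, where 1 library carried most of the signal.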

How the data were processed

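Libraries were ribosome-depleted total RNA sequenced on an Ion Proton, 3 libraries per chip, per the labels' protocols, and the sources used here do not say which ones ran together. Bowtie 0.12.2 and mm10 are named in the submitters' processing notes; the counting tool and annotation are not given. Per the file headers, the authors deposited estimated counts of raw fragments per gene, the same fragments as a scaled signal, and FPKM, with 1147 to 1440 genes per library not whole within 1e-06; FPKM was scaled separately for cerebellum.

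Fragments were rounded and tested with edgeR 4.0.16 (quasi-likelihood, TMM, 1 mean per group over 9 libraries, Benjamini-Hochberg over 14337 genes, kept where 3 or more libraries reached an FPKM of 1, threshold 0.05). Alternatives used DESeq2 1.42.0, limma 3.58.1 (R 4.3.3), other filters and scaling, a replicate block and leaving out each library. Ratios used exact permutation tests (SciPy 1.17.1, Python 3.11.15). Coordinates are from GENCODE M21, promoters from RefSeq. CPM per kilobase used the length factor of 538 single-transcript genes. Replicates differed beyond sampling noise (chi-square over its degrees of freedom, 11.3 to 45.8; Spearman 0.887 to 0.968).

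The members and lists were chosen with earlier results of these data known. All members are named; of each other list, up to 3 of the largest called changes; and for each tested member the 3 nearest profiles, passing over predicted and small RNA genes. Some results that this rule would name are not reported here. The floor of 3 fragments covers counting error only.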

Additional observations from a re-analysis of the deposited data

How the results depend on the processing

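In every alternative run, Cbln1, Cbln3, Cbln4, Nrxn2 and Nrxn3 kept their direction and call between tumours and cerebellum, except that DESeq2 gave Cbln3 no adjusted p. The count of genes called between A1G and Ptch1 tumours, 2 in the reported analysis, was 81 with no filter, 163 with DESeq2, 0 with limma on log2(FPKM + 1) and 0 with tumour libraries only, and 0 to 4 when 1 library was left out. No member passed in any of these settings. Of the estimates between tumour kinds, 2 changed sign without A1G replicate 2: Cbln1 at -0.048 (adjusted p = 0.982) and Cbln4 at -1.22 (adjusted p = 0.667). Cbln4 in Ptch1 tumours against cerebellum missed the threshold with limma on log2(FPKM + 1) (2.16, adjusted p = 0.0692). Over the fits that left out 1 library, these A1G against Ptch1 estimates ran from -0.048 to 1.49 for Cbln1 and from -1.22 to 2.24 for Cbln4. The tumour-to-cerebellum log2 ratio differences ranged from -3.55 to -2.49 for Cbln3 to Cbln1 when 1 library was left out. For Nrxn3 to Nrxn2 they ranged from -1.59 to -1.16. Without a cerebellum library the exact test cannot go below 0.0714 before adjustment. The ratio p-values were not adjusted in these runs, so whether the adjusted ratio results hold without any 1 library, tumour or cerebellum, was not tested.

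With limma on log2(FPKM + 0.1), Cbln3 stood at -5.66 in tumours and -6.91 in Ptch1 tumours against cerebellum and at 2.51 between tumour kinds, and Cbln4 at 4.33 in A1G tumours; with limma on log2(FPKM + 1) it was 2.54 there.

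With a replicate block, 5 members were again called between tumours and cerebellum and 0 between A1G and Ptch1 tumours, where 2 genes were called; Cbln3 then stood at -5.80 in tumours against cerebellum. Same-numbered libraries correlated at -0.07 to 0.21 in their deviations from group means. Differently numbered libraries were not compared in this way, so whether the numbers pair the samples was not tested. The low depth limits Cbln2 and Cbln4 in cerebellum, where 0 to 9 fragments were counted.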

Other observations

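The transcript length that the deposited FPKM implies for a gene (fragments divided by FPKM, put on 1 scale for all libraries) varied for Nrxn3, which has 13 annotated transcripts. It was 6.72, 5.52 and 6.29 kilobases in A1G tumours, 6.34, 6.09 and 5.41 kilobases in Ptch1 tumours, and 5.86, 5.97 and 5.97 kilobases in cerebellum. The tumour libraries spread to both sides of the narrow cerebellum range. For Nrxn2 the implied length varied too, from 6.65 to 6.99 kilobases in tumours and from 6.64 to 6.99 kilobases in cerebellum. CPM values and the fits to fragments do not use this length. It does enter CPM per kilobase, the filter on FPKM and the limma fits.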
